A study of Gallus gallus with 6 samples.

Results

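RNA of F1 granulosa cells (F1 GCs) was compared with RNA of the ovulated germinal disc region (Ov GDR) on Affymetrix chicken arrays. The 4 arrays of these groups, 2 per group, were selected by their labels from the 6 arrays of the series. All hens were untreated ISA Brown layers, 60 weeks old, and each array carried RNA pooled from 25 hens, so that an array is a pool and not a bird. F1 GCs are the granulosa cells that surround the germinal disc region of F1, the largest follicle before ovulation. Ov GDR is the same region of the oocyte after ovulation, which the study treats as lacking granulosa cells. The groups therefore differ in cell type and in stage together, and these cannot be told apart. The remaining 2 arrays hold the region of the F1 follicle itself (F1 GDR), with the granulosa cells that overlie it, and they entered only the estimate of the spread. Only the suffix A tells the labels of a group's arrays apart, and they are called 1 and A below. The methods treat the 2 pools of a group as biological replicates, and p-values measure the spread between such pools, not between hens.

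The hen's oocyte is filled with yolk, and its cytoplasm is gathered around the nucleus in the germinal disc, from which the embryo forms. At ovulation it is arrested in meiosis, with its chromosomes on the spindle of the second division, and it carries the mRNA that the first cleavages of the embryo will use. The granulosa cells form a layer around the yolk and produce progesterone under the control of luteinizing hormone, most of all in the F1 follicle. They also lay down proteins of the inner coat of the egg, which sperm meets first.

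The labelled material was set against markers of each cell type, and the granulosa and germ line markers differed in the direction of the labels with exceptions. Of 9 granulosa markers 6 were higher in F1 GCs, and the summed level of the 9 was 12.2 and 11.9 in Ov GDR against 14.3 and 14.4 in F1 GCs (log2 of the linear sum). FOXL2, a transcription factor of ovarian somatic cells, was instead higher in Ov GDR, with 12.02 and 11.71 there and 11 and 10.87 in F1 GCs. Of 7 measured germ line markers 5 were higher in Ov GDR. GDF9 among them lay near background, with 3.15 and 3.27 in Ov GDR and 2.82 and 2.81 in F1 GCs. DDX4 and BMP15, a helicase and a growth factor of oocytes, were at background in both groups. By real-time PCR, however, the study found both expressed preferentially in the germinal disc region. The background of an array was taken as the highest value among 23 controls whose sequences the hen does not have, and it was 3.27 and 3.01 for Ov GDR and 2.76 and 2.78 for F1 GCs. Probe sets above it made up 36.6% and 44.0% in Ov GDR and 51.4% and 51.3% in F1 GCs. A fold against a group whose arrays both lay at or under it is a bound and is written as at least. Where 1 of the arrays of the lower group lay under it and the other above, the fold is as measured and rests on a level near background. The arrays also differed in RNA. In the study, ribosomal RNA of the germinal disc region appeared degraded from ovulation to laying, while mRNA integrity was reported as almost unaffected. That state goes with the Ov GDR group and cannot be told apart from it. For ACTB, cytoskeletal actin, the control probe set at the 3′ end exceeded that at the 5′ end by 5.02 on Ov GDR 1, 1.53 on Ov GDR A, 3.23 on F1 GCs 1 and 2.46 on F1 GCs A (log2). In the same order of arrays the excess was 2.82, 0.108, 0.915 and 0.543 for GAPDH and 4.51, 1.48, 1.31 and 1.09 for EEF1A1. Only for EEF1A1 did both Ov GDR arrays exceed both F1 GCs arrays. Differences between the 2 arrays of a group had an SD of 0.82 in Ov GDR and 0.30 in F1 GCs, and the labels give 7 µg of total RNA for F1 GCs 1 against 14 to 17 µg for the other 3, whereas the methods give 1 amount for all samples, which is none of these. The part of these differences in the results below was not tested. A bulk RNA pool also cannot tell fewer cells of a type from less RNA per cell.

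Probe sets were called at an adjusted p (Benjamini-Hochberg) under 0.05 in a linear model over the 6 arrays (limma). In F1 GCs 3284 of 38439 probe sets stood higher (8.54%), and 2502 did so in Ov GDR (6.51%). Differences in favour of F1 GCs were larger, with a median of 2.46 among calls against 1.59 for Ov GDR (log2), and 140 against 14 calls reached a log2 difference of 6. Both groups were at background in 575 of the probe sets called higher in Ov GDR (23.0%) and in 21 of those called higher in F1 GCs (0.639%). Over all probe sets the median difference, F1 GCs minus Ov GDR, was -0.07. The split of calls changed with the scaling. F1 GCs held 56.8% of all calls as deposited and 42.7% after the arrays were set to equal means of ACTB, GAPDH and EEF1A1. That setting moved the median of all probe sets to -0.50. It also changed how variances were pooled, so the part of the scaling alone was not tested. The 27 hybridization controls of the array averaged 11.3 on both Ov GDR arrays and 9.75 and 10.1 on F1 GCs 1 and A (log2). They thus stood higher in Ov GDR, and scaling the arrays to them would move differences towards F1 GCs instead. No such scaling was run, and the part of this offset in the calls was not tested. Some genes, among them CYP11A1, INHA, SKP2, MCM2, MCM5, KPNA2 and CLDN1, are read from probe sets that the array design marks as able to bind several transcripts, so that relatives may add to their values. For other genes the fold rests on 1 of several probe sets, with none of the others called. Among these are INF2 with 4 probe sets, NOTCH2 with 6, and SHANK2, MASTL, CPEB1 and IGF2BP3 with 3 each. Gene lists were read with 1 probe set per gene, the brightest, which called 1581 of 13009 genes higher in F1 GCs (12.2%) and 1313 higher in Ov GDR (10.1%), with a median difference of -0.08.

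**Figure D1:**
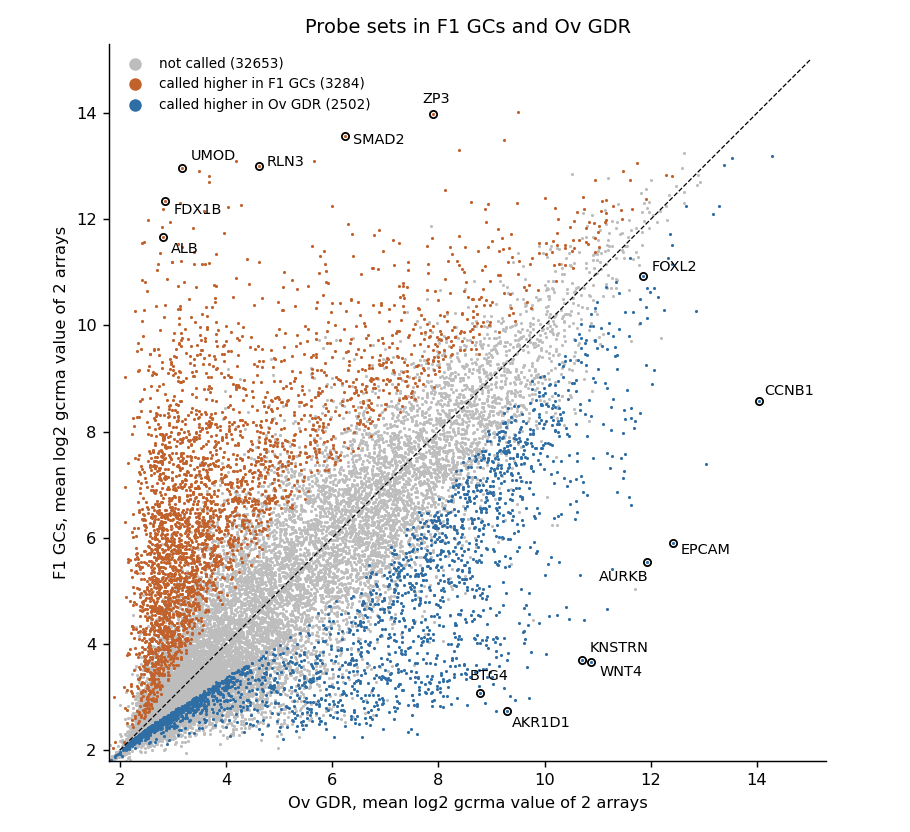
Mean log2 gcrma value of the 2 Ov GDR arrays (horizontal axis) and of the 2 F1 GCs arrays (vertical axis) for each of 38439 probe sets, with the dashed line at equality. Orange points (3284) were called higher in F1 GCs and blue points (2502) higher in Ov GDR, and UMOD and WNT4 had the largest called difference on either side.

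**Figure D2:**
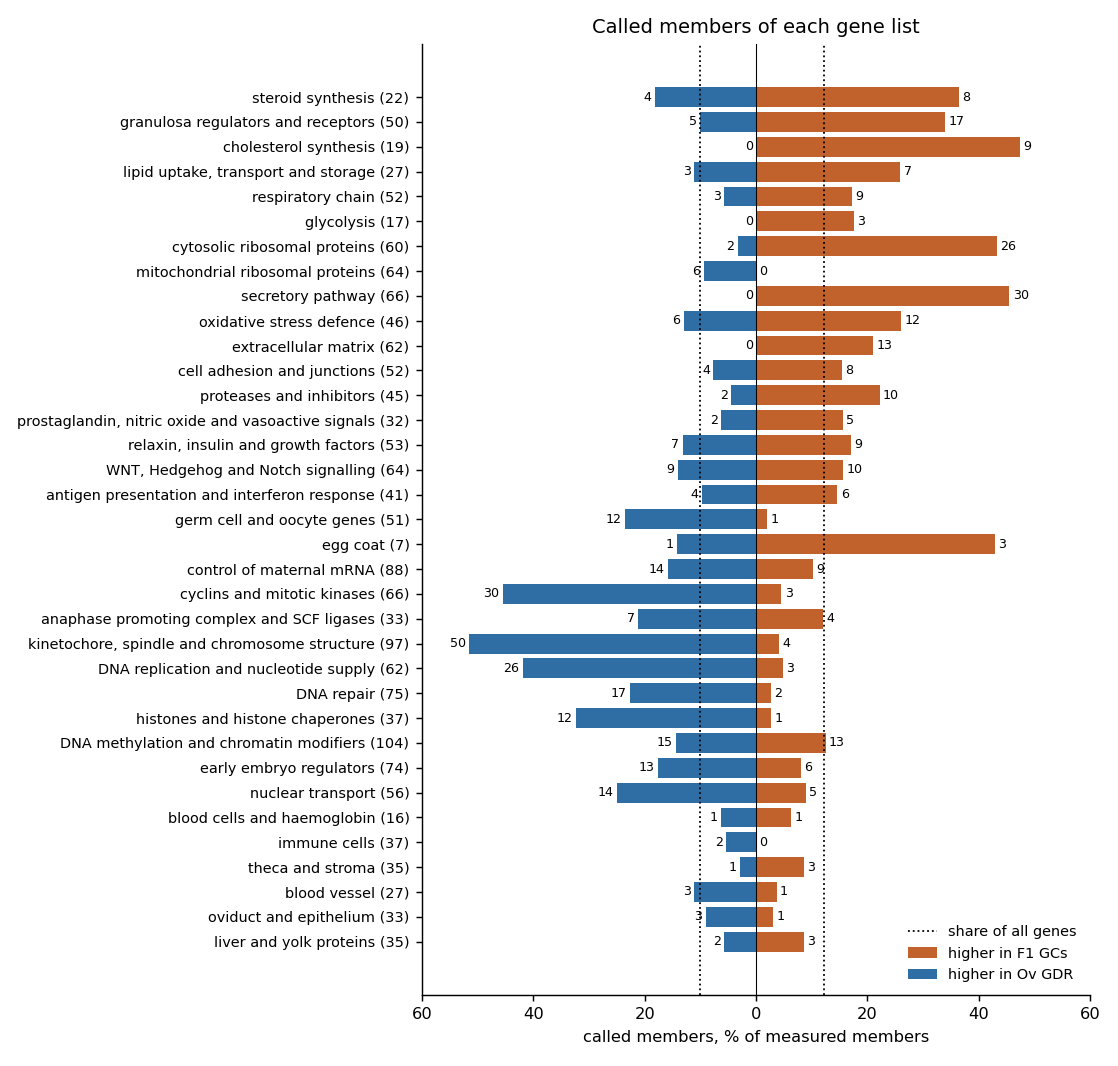
Called members of each gene list as a percentage of its measured members (number in parentheses), with those higher in F1 GCs to the right and those higher in Ov GDR to the left, and the count beside each bar. Dotted lines give the shares of all genes, 12.2% and 10.1%. The list of the kinetochore and spindle reached 51.5% on the side of Ov GDR and cholesterol synthesis 47.4% on that of F1 GCs.

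Steroid synthesis held some of the largest contrasts in favour of F1 GCs and also genes that stood higher in Ov GDR. FDX1B, a ferredoxin of the kind that hands electrons to the mitochondrial enzymes of steroid synthesis, had log2 values of 2.69 and 3.02 on Ov GDR 1 and A and of 12.31 and 12.38 on F1 GCs 1 and A. It was higher in F1 GCs by 9.49 (SE 0.218, adjusted p = 0.00222), or 718-fold. CYP11A1, which cuts the side chain of cholesterol, stood at 2.71 and 3.18 in Ov GDR and at 11.94 and 11.97 in F1 GCs, a 515-fold difference. For both genes the Ov GDR values lay on either side of the background, so that these folds rest on a level near it. HSD3B1, the enzyme that makes progesterone, was at background in Ov GDR for one probe set and at least 532-fold higher in F1 GCs, and 516-fold higher for the other. STAR, which carries cholesterol into mitochondria, was higher in F1 GCs 97.2-fold and PGRMC1, a membrane protein that binds haem and progesterone, at least 457-fold. AKR1D1, which reduces and so inactivates steroids such as progesterone, ran the other way, with 8.54 and 10.04 in Ov GDR against 2.79 and 2.67 in F1 GCs. The difference in favour of Ov GDR was 94.3-fold (adjusted p = 0.00553), and HSD17B1, which makes oestradiol from oestrone, was 16.5-fold higher there. TSPO and ACBD3, partners in cholesterol delivery to mitochondria, were also higher in Ov GDR, 3.71-fold and 2.22-fold. Of 22 measured genes of this list 8 were higher in F1 GCs (36.4%) and 4 higher in Ov GDR (18.2%). The shares of all genes were 12.2% and 10.1%. With each array left out in turn, in the order Ov GDR 1, Ov GDR A, F1 GDR 1, F1 GDR A, F1 GCs 1 and F1 GCs A, which is kept below, 8, 9, 7, 7, 7 and 5 of these 9 calls passed, and HSD17B1, ACBD3, TSPO and STAR failed at least once (adjusted p up to 0.230). AKR1D1 was 158-fold and 56.1-fold higher in Ov GDR without Ov GDR 1 and Ov GDR A, and HSD17B1 31.8-fold and 8.58-fold higher without F1 GCs 1 and F1 GCs A.

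Genes that regulate granulosa cells were mostly higher in F1 GCs where they were called. NR5A2, a nuclear receptor that drives steroid synthesis genes, was at background in Ov GDR at 3.06 and 2.90 and stood at 11.04 and 11.34 in F1 GCs, at least 265-fold higher (adjusted p = 0.00414). INHA, the subunit that makes inhibin, was at least 182-fold higher and ID2, a dominant-negative partner of helix-loop-helix factors, at least 212-fold. SMAD2, which carries signals of activin and TGF-beta to the nucleus, had values of 6.14 and 6.33 in Ov GDR and of 13.59 and 13.54 in F1 GCs. Its difference of 7.33 had an SE of 0.129, the smallest relative to its size among the genes named here. LHCGR, the receptor for luteinizing hormone, was 41.3-fold higher in F1 GCs and INHBA, a subunit of activin, 59.1-fold. FST, follistatin, which binds and blocks activin, was higher in Ov GDR instead, with 7.22 and 7.18 against 3.20 and 2.82, an 18.2-fold difference. NR0B1, a repressor of NR5A receptors, was 7.22-fold higher in Ov GDR, the factor CEBPB 2.86-fold and FOXL2 1.91-fold. FSHR, the receptor for follicle-stimulating hormone, did not pass, with 7.93 and 7.75 in Ov GDR and 7.59 and 7.35 in F1 GCs. The list had 50 measured members, of which 17 were higher in F1 GCs (34.0%) and 5 higher in Ov GDR (10.0%). The share in Ov GDR was near the 10.1% of all genes, while 12.2% of all genes were higher in F1 GCs. In the array order above 8, 10, 8, 9, 6 and 6 of these 10 calls passed, and CEBPB, FOXL2, INHBA and NR0B1 failed at least once (adjusted p up to 0.257). INHBA was 99.0-fold and 35.3-fold higher in F1 GCs without Ov GDR 1 and without Ov GDR A.

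Hormones and growth factors were divided between the groups. RLN3, a hormone of the relaxin family, stood at 4.44 and 4.79 in Ov GDR and at 12.91 and 13.09 in F1 GCs, 334-fold higher in F1 GCs (adjusted p = 0.00257). IGFBP7, a secreted binding protein, was 48.8-fold higher in F1 GCs and EGFR, the receptor of ligands such as amphiregulin, 25.3-fold. VEGFA, which induces blood vessels, was 15.9-fold higher and NOS2, which makes nitric oxide, 5.46-fold. On the other side BDNF, a neurotrophin, had 6.87 and 7.19 in Ov GDR and 3.40 and 3.23 in F1 GCs, 13.1-fold higher in Ov GDR. PTN, a heparin-binding factor, was 8.51-fold higher in Ov GDR and FGF8, a factor of early patterning, 4.76-fold. Of 53 measured relaxin, insulin and growth factor genes 9 were higher in F1 GCs (17.0%) and 7 higher in Ov GDR (13.2%), shares near those of all genes. The numbers of these 8 calls that passed without each array were 8, 8, 8, 8, 5 and 3, and EGFR, NOS2, BDNF, VEGFA and PTN failed at least once (adjusted p up to 0.114).

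Cholesterol synthesis had 9 of 19 measured enzymes higher in F1 GCs (47.4%) and 0 of 19 higher in Ov GDR, with a median difference of 1.07. SQLE, the squalene epoxidase that commits carbon to sterols, had 6.43 and 6.67 in Ov GDR and 10.87 and 11.06 in F1 GCs, 21.4-fold higher in F1 GCs (SE 0.214, adjusted p = 0.00271). LSS, which closes the sterol rings, was 5.58-fold higher. HMGCS1, at the start of the pathway, was 57.3-fold higher and DHCR7, at its end, 49.2-fold, with Ov GDR values that spread widely (5.52 and 3.84 for HMGCS1, 6.61 and 3.87 for DHCR7). Called genes of lipoprotein uptake and of cholesterol ester storage were higher in F1 GCs as well. VLDLR, the receptor through which hen oocytes take up yolk precursors, stood at 8.25 and 8.12 in Ov GDR and 11.21 on both F1 GCs arrays, 8.15-fold higher in F1 GCs. LRPAP1, the chaperone of such receptors, was 72.7-fold higher, PNPLA2, a lipase of lipid droplets, at least 42.9-fold and SOAT1, which esterifies cholesterol, 13.7-fold. Other carriers of lipids went the other way. FABP3, which binds fatty acids, had 8.78 and 9.37 in Ov GDR against 2.96 and 2.53 in F1 GCs, 80.8-fold higher in Ov GDR (adjusted p = 0.00431), FABP7 was 19.1-fold higher and OSBPL1A, an oxysterol-binding protein, 13.0-fold. Of 27 measured genes of lipid uptake, transport and storage 7 were higher in F1 GCs (25.9%) and 3 higher in Ov GDR (11.1%). The latter share was near the 10.1% of all genes, while 12.2% of all genes were higher in F1 GCs. Without each array in the same order 11, 11, 10, 10, 7 and 6 of the 11 calls passed, and DHCR7, LSS, HMGCS1, OSBPL1A and FABP7 failed at least once (adjusted p up to 0.139). Without Ov GDR 1 and Ov GDR A the fold was 127 and 19.0 for DHCR7 and 103 and 32.0 for HMGCS1.

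The secretory pathway had 30 of 66 measured genes higher in F1 GCs (45.5%), 0 of 66 higher in Ov GDR and a median of 1.31. With the equal reporter gene means 30 were higher in F1 GCs and 4 higher in Ov GDR. As deposited, 12.2% of all genes were higher in F1 GCs and 10.1% higher in Ov GDR. TMED7, a cargo receptor between endoplasmic reticulum and Golgi, had 4.72 and 3.66 in Ov GDR and 10.91 and 10.87 in F1 GCs, 104-fold higher in F1 GCs (adjusted p = 0.0033). The folding enzymes of the endoplasmic reticulum PDIA4 and P4HB were higher 36.8-fold and 29.9-fold. HSP90B1, its chaperone of the HSP90 family, had 6.73 and 6.86 in Ov GDR and 11.64 and 11.77 in F1 GCs, 30.1-fold higher. Among products of this pathway, genes of the extracellular matrix had 13 of 62 members higher in F1 GCs (21.0%) and 0 of 62 higher in Ov GDR, yet a median of -0.05, and 19 were at background in both groups. FN1, fibronectin, had 4.01 and 4.05 in Ov GDR and 12.16 and 12.30 in F1 GCs, 294-fold higher in F1 GCs (SE 0.231). By its brightest probe set FN1 was 256-fold higher. SPARC, a collagen-binding glycoprotein, was 21.6-fold higher, NELL2, a secreted glycoprotein, 377-fold and SULF1, which trims heparan sulphate, 22.6-fold. LAMA2, a laminin chain, was 29.8-fold higher by its brightest probe set, while another of its probe sets was called higher in Ov GDR. In the array order 9, 9, 9, 9, 8 and 7 of these 9 calls passed, LAMA2 and SULF1 being lost (adjusted p up to 0.0645), and LAMA2 was 47.0-fold and 18.9-fold higher without Ov GDR 1 and Ov GDR A.

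Egg coat genes were divided by coat protein. UMOD is the annotation's name for the gene that the study lists as zona pellucida protein D. It had 3.43 and 2.92 in Ov GDR and 12.89 and 13.06 in F1 GCs. The difference was the largest of all called genes at 9.80 (SE 0.259, 890-fold, adjusted p = 0.00257). ZP3, a main coat protein that hen granulosa cells make, had 8.25 and 7.56 in Ov GDR and 13.99 on both F1 GCs arrays, 67.8-fold higher in F1 GCs. ZP2 ran the other way, with 7.07 and 6.57 in Ov GDR and 3.86 and 2.96 in F1 GCs, 10.6-fold higher in Ov GDR (adjusted p = 0.0118). ZPLD1, a related protein, was 6.29-fold higher in F1 GCs, and 10.4-fold and 3.79-fold without Ov GDR 1 and Ov GDR A. These made up 3 and 1 of 7 measured genes (42.9% and 14.3%, beside 12.2% and 10.1% of all genes). Of the 4 calls 4, 4, 3, 3, 3 and 2 passed without each array, ZPLD1 and ZP2 being lost (adjusted p up to 0.196).

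Lysosomal proteases and genes of oxidative defence included further large contrasts. CTSA, a lysosomal carboxypeptidase, stood at 5.90 and 5.43 in Ov GDR and at 13.07 and 13.13 in F1 GCs, 174-fold higher in F1 GCs (adjusted p = 0.00268). LGMN, which activates other lysosomal proteases, was 62.1-fold higher, CTSC, a cathepsin, 21.4-fold and CST3, an inhibitor of cathepsins, 22.1-fold. SERPINE2, an inhibitor of thrombin and plasminogen activators, was 24.4-fold higher in Ov GDR, from 7.83 and 8.84 against 4.57 and 2.88. Among proteases and inhibitors 10 of 45 were higher in F1 GCs (22.2%) and 2 higher in Ov GDR (4.44%). SELENOP1, a selenium carrier in plasma, had 3.01 and 3.32 in Ov GDR and 11.82 and 11.12 in F1 GCs, 316-fold higher in F1 GCs, although 1 of its other probe sets, near background, was called the other way. EPHX1L, an epoxide hydrolase by its name, was at least 63.5-fold higher and GPX3, a secreted glutathione peroxidase, 13.1-fold. The metallothioneins, which bind zinc and copper, were higher in Ov GDR. MT4 had 10.71 and 9.86 there against 5.94 and 5.16 in F1 GCs, a 26.6-fold difference (adjusted p = 0.00611), and MT3 was 17.1-fold higher. Over the list of oxidative defence 12 of 46 members were higher in F1 GCs (26.1%) and 6 higher in Ov GDR (13%). The shares of all genes were 12.2% and 10.1%. The 10 calls passed in 10, 10, 9, 9, 8 and 7 cases without each array, SERPINE2, GPX3 and MT3 being lost (adjusted p up to 0.110). SERPINE2 was 43.9-fold and 13.6-fold higher in Ov GDR without F1 GCs 1 and F1 GCs A, and MT3 26.5-fold and 11-fold without Ov GDR 1 and Ov GDR A.

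Ribosomal protein genes of the cytosol and of mitochondria gave different counts. In the cytosolic list 26 of 60 were higher in F1 GCs (43.3%) and 2 higher in Ov GDR (3.33%), with a median of 0.75. In the mitochondrial list 0 of 64 were higher in F1 GCs and 6 higher in Ov GDR (9.38%), with a median of -0.14. Of all genes 12.2% were higher in F1 GCs and 10.1% higher in Ov GDR. The mitochondrial share in Ov GDR was thus near that of all genes. The difference between the lists was not tested. With the equal reporter gene means the cytosolic count in F1 GCs fell to 12, and it was 7 to 41 with an array left out. RPS3, a protein of the small subunit, had 8.18 and 8.35 in Ov GDR and 11.38 and 11.32 in F1 GCs, 8.52-fold higher in F1 GCs (SE 0.117, adjusted p = 0.00268). RPL8 was 5.20-fold higher, RPS6 3.40-fold and RPL31 at least 2.20-fold, and the exceptions RPL11 and RPL29 were 1.56-fold and 1.26-fold higher in Ov GDR. MRPS31 of the mitochondrial ribosome had 10.23 and 10.30 in Ov GDR and 7.98 and 8.01 in F1 GCs, 4.82-fold higher in Ov GDR. Subunits of the respiratory chain were called in both directions, 9 of 52 higher in F1 GCs (17.3%) and 3 higher in Ov GDR (5.77%). Among them were COX6C of complex IV (4.32-fold higher in F1 GCs) and NDUFA6 of complex I (2.80-fold higher in Ov GDR). For glycolysis 3 of 17 enzymes were higher in F1 GCs (17.6%, beside 12.2% of all genes). PFKL, the liver form of phosphofructokinase, had 3.35 and 3.21 in Ov GDR and 9.80 and 9.70 in F1 GCs (88.5-fold). GPI was 4.47-fold higher in F1 GCs. In order, 10, 11, 9, 9, 5 and 4 of these 11 calls passed without each array, RPS3, RPS6, NDUFA6 and PFKL in every case, and the highest adjusted p was 0.201.

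**Figure D3:**
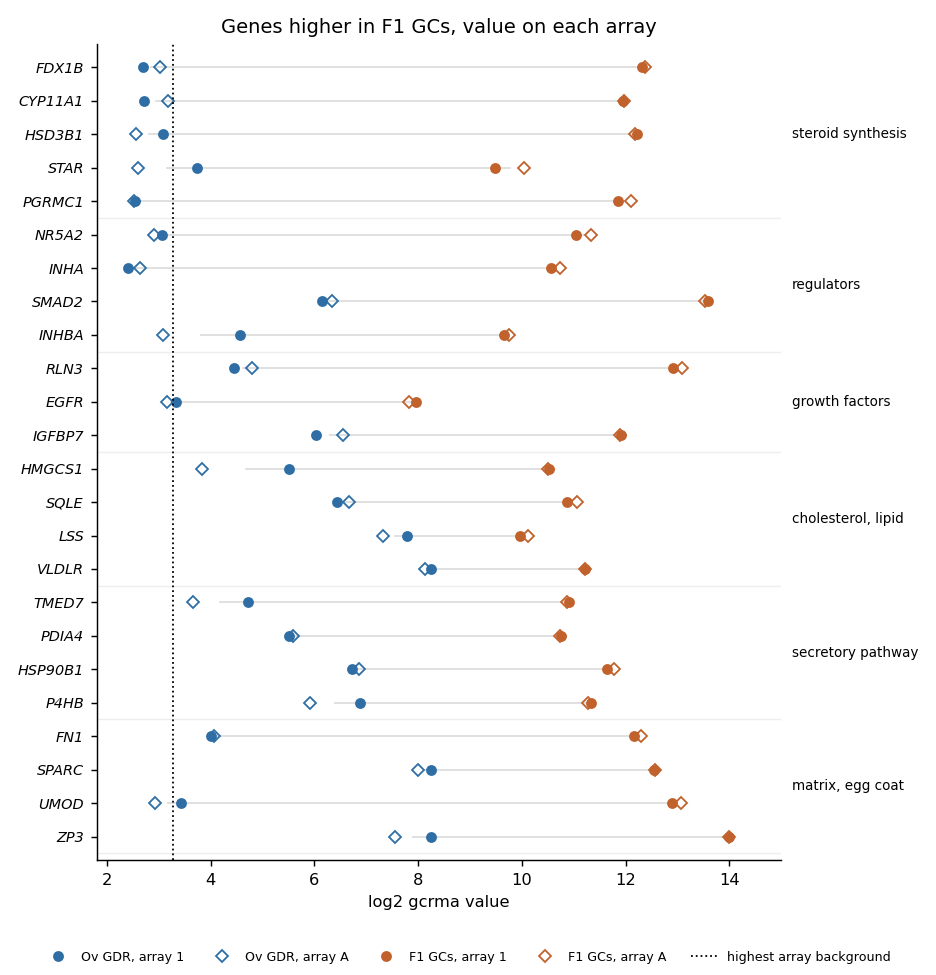
Log2 gcrma value of genes higher in F1 GCs on each of the 4 arrays (circles, array 1; diamonds, array A), with grey lines between group means and a dotted line at the highest background of the arrays, 3.27. In each row shown the F1 GCs values lie to the right of both Ov GDR values, by 9.80 on average for UMOD and 3.03 for VLDLR.

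Several of the genes with the largest contrasts in favour of F1 GCs belonged to none of these groups. FAM189A2, a membrane protein, had 3.31 and 3.66 in Ov GDR and 12.89 and 12.93 in F1 GCs, 687-fold higher in F1 GCs (SE 0.205, adjusted p = 0.00222). C11orf96 was 579-fold higher, BDP1, a subunit of the factor that recruits RNA polymerase III, at least 339-fold and HHIPL2, related to the Hedgehog-interacting protein, at least 348-fold. Transporters of hormones and fuel were among them. SLC16A10, which carries aromatic amino acids and thyroid hormone, had 2.85 and 2.66 in Ov GDR and 11.39 and 11.34 in F1 GCs, at least 298-fold higher, and SLC2A12, a glucose transporter, was at least 142-fold higher. INF2, a formin that nucleates actin, was 351-fold higher by 1 of its 4 probe sets, the others not being called. LRRN4 was at least 258-fold higher and MMD 255-fold. ARIH1, a ubiquitin ligase, was at least 204-fold higher by 1 probe set, while another was called higher in Ov GDR. All these calls passed without each array except that of ARIH1, lost without F1 GCs 1 and without F1 GCs A (adjusted p up to 0.108), and C11orf96 was 941-fold and 356-fold higher without Ov GDR 1 and Ov GDR A.

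Genes of cell division were mostly higher in Ov GDR where they were called. Of 66 measured cyclins and mitotic kinases 30 were higher in Ov GDR (45.5%) and 3 in F1 GCs, with a median difference of -1.94. AURKB, the kinase that corrects the attachment of chromosomes to the spindle, had 11.34 and 12.51 in Ov GDR and 7.09 and 4 in F1 GCs, 83.4-fold higher in Ov GDR (SE 1.09, adjusted p = 0.0269). Its name is that of the annotation. The study's BLAST search gave this probe set the name of another gene, and which name applies was not tested. MASTL, which holds the phosphatase that ends mitosis in check, had 8.96 and 9.11 in Ov GDR and 3.94 and 2.55 in F1 GCs, a 55.2-fold difference. CDK1 and CCNB1, the kinase and cyclin that drive entry into M phase, were 45.1-fold and 43.8-fold higher in Ov GDR, and CKS1B, a small subunit of such kinases, 50.3-fold. The groups did not overlap for any of them, which held for all 2502 probe sets called higher in Ov GDR. For AURKB, MASTL, CDK1, CCNB1 and CKS1B alike F1 GCs 1 stood above F1 GCs A, at 9.96 against 7.21 for CCNB1. The 3 members higher in F1 GCs were WEE1, LIN52, a subunit of the DREAM complex (3.05-fold), and CCNG1, a cyclin that p53 induces (1.82-fold). WEE1, the kinase that inhibits CDK1, was at background in Ov GDR with 2.61 and 2.51 and at 8.65 and 8.61 in F1 GCs, at least 44.8-fold higher in F1 GCs (adjusted p = 0.00268). By real-time PCR, however, the study found a gene it calls wee, similar to a Wee1A kinase, expressed preferentially in the germinal disc region. Whether this probe set reads that gene or a relative was not tested. Regulators of protein destruction had 7 of 33 members higher in Ov GDR (21.2%) and 4 in F1 GCs (12.1%). The share in F1 GCs was near the 12.2% of all genes, and 10.1% of all genes were higher in Ov GDR. CDC20, which activates the anaphase promoting complex, was 10.7-fold higher in Ov GDR, USP37, a deubiquitinase, 9.84-fold and FBXO43, which keeps that complex inactive in frog and mouse eggs arrested in meiosis, 10.0-fold. SKP2, an F-box protein of an SCF ligase, had 5.49 and 6.05 in Ov GDR and 11.42 and 11.19 in F1 GCs, 46.4-fold higher in F1 GCs, and ANAPC2, a core subunit of the complex, was 6.18-fold higher there. Without each array 10, 10, 7, 7, 8 and 6 of the 13 calls passed. CDK1, CCNB1, AURKB, FBXO43, CDC20, ANAPC2, USP37, LIN52 and CCNG1 failed at least once (adjusted p up to 0.234), and MASTL, CKS1B, WEE1 and SKP2 did not. Without F1 GCs 1 and F1 GCs A the fold was 243 and 28.6 for AURKB, 89.2 and 34.1 for MASTL, 114 and 16.9 for CCNB1, 84.3 and 30.0 for CKS1B and 130 and 15.7 for CDK1. Without Ov GDR 1 and Ov GDR A it was 77.2 and 26.3 for CDK1 and 15.2 and 6.66 for FBXO43.

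The kinetochore and spindle gave the highest share of the 36 lists, 50 of 97 measured genes higher in Ov GDR (51.5%) and 4 in F1 GCs, with a median of -2.40 and a negative difference for 87. Of all genes 10.1% were higher in Ov GDR and 12.2% in F1 GCs. KNSTRN, a spindle protein that acts at the kinetochore, had 11.04 and 10.36 in Ov GDR and 4.70 and 2.68 in F1 GCs, 129-fold higher in Ov GDR (SE 0.734, adjusted p = 0.00829). NCAPG and SMC2, subunits of condensin, which compacts chromosomes, were 74.4-fold and 48.6-fold higher. KIF15, a spindle motor, was 45.3-fold higher and STIL, needed to build centrioles, 59.7-fold. Those that went the other way included CENPO, a centromere protein, 47.1-fold higher in F1 GCs, with 6.64 and 5.06 in Ov GDR and 11.25 and 11.57 in F1 GCs. TOP2B, the topoisomerase that non-dividing cells use, was higher in F1 GCs by at least 22.4-fold and STAG3, a cohesin subunit known from meiosis, at least 10.8-fold. The counts of these 8 calls without each array were 8, 8, 6, 6, 6 and 6, with NCAPG, SMC2, CENPO and STAG3 lost (adjusted p up to 0.0661). Without F1 GCs 1 and F1 GCs A the fold was 259 and 64.0 for KNSTRN, 169 and 32.7 for NCAPG, 104 and 22.6 for SMC2, 75.4 and 27.3 for KIF15 and 117 and 30.4 for STIL. CENPO was 81.4-fold and 27.3-fold higher in F1 GCs without Ov GDR 1 and Ov GDR A. As for the whole comparison, the count of members higher in Ov GDR varied with the arrays, from 9 to 64 of 97.

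The F1 GCs arrays differed from each other in these same transcripts. Of the 985 probe sets that were higher in Ov GDR by 2 or more on the log2 scale, 824 stood higher on F1 GCs 1 than on F1 GCs A (83.7%), by a median of 0.40, against 39.7% and a median of -0.01 over all probe sets. Among the 2072 probe sets higher in F1 GCs by as much, 994 stood higher on F1 GCs 1 (48.0%). In the kinetochore and spindle list 82 of 97 genes stood higher on F1 GCs 1, and in the list of cyclins and mitotic kinases 50 of 66. A gap of 1 or more was seen for 163 of the 985 in this direction and for 0 in the opposite one. The calls were partly chosen by these same values, so the shares are a description without a test. The number of probe sets higher in Ov GDR was 179 without F1 GCs A and 360 without F1 GCs 1.

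**Figure D4:**
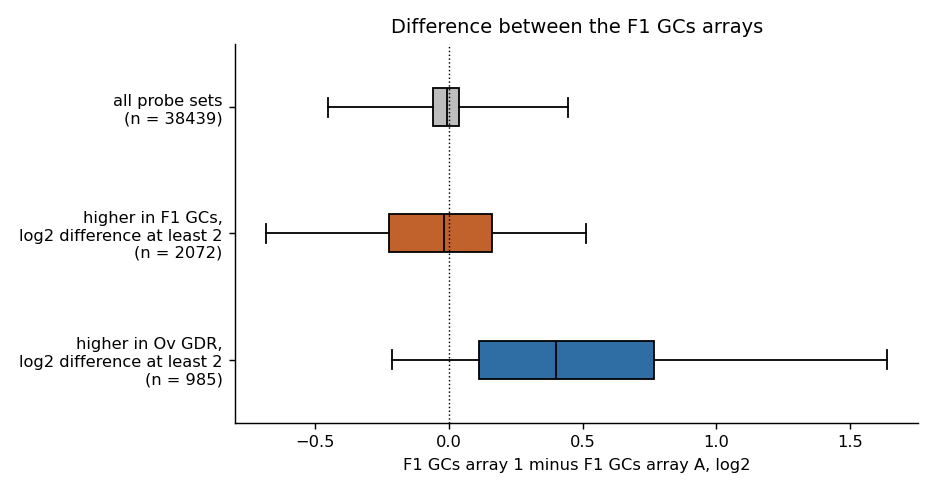
Difference between the 2 F1 GCs arrays (array 1 minus array A, log2) for all probe sets and for those called higher in either group by a log2 difference of at least 2. Boxes give the quartiles with the median as a line and whiskers reach the 5th and 95th percentiles. The median is 0.40 for probe sets higher in Ov GDR and -0.02 for those higher in F1 GCs.

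DNA replication followed the same direction, with 26 of 62 measured genes higher in Ov GDR (41.9%), 3 in F1 GCs and a median of -1.86. For this and the lists below, the shares of all genes were 10.1% in Ov GDR and 12.2% in F1 GCs. MCM2, a subunit of the replicative helicase, had 9.58 and 9.65 in Ov GDR and 5.03 and 3.47 in F1 GCs, 41.1-fold higher in Ov GDR (SE 0.567, adjusted p = 0.00841), and MCM5 was 40.1-fold higher. TK1, the thymidine kinase of dividing cells, was 31.6-fold higher. RRM2, the small subunit of the enzyme that makes deoxynucleotides, had 10.53 and 10.37 in Ov GDR but 6.41 and 2.52 in F1 GCs, so that its 63.2-fold difference passed narrowly (adjusted p = 0.0473). The members higher in F1 GCs were TK2, the mitochondrial thymidine kinase (at least 13.5-fold), SAMHD1, which degrades deoxynucleotides (at least 8.70-fold), and RRM2B, the small subunit used outside S phase (2.86-fold). For DNA repair 17 of 75 were higher in Ov GDR (22.7%) and 2 in F1 GCs. BARD1, the partner of BRCA1, had 8.52 and 7.96 in Ov GDR and 3.43 and 2.32 in F1 GCs, a 41.2-fold difference, BLM, a helicase of recombination, was 23.4-fold higher and EXO1, an exonuclease, 27.3-fold. Histones and their chaperones had 12 of 37 higher in Ov GDR (32.4%) and 1 in F1 GCs. SLBP, which binds histone mRNA, was 31.7-fold higher in Ov GDR, CHAF1B, a subunit of the factor that loads histones at the fork, 12.5-fold and NASP, a histone carrier, 10.3-fold. The 13 calls passed in 11, 12, 10, 10, 9 and 9 cases without each array, with RRM2, RRM2B, MCM5, EXO1 and CHAF1B lost at least once (adjusted p up to 0.176). Without F1 GCs 1 and F1 GCs A the fold was 70.6 and 23.9 for MCM2, 244 and 16.4 for RRM2, 56.4 and 17.8 for SLBP and 52.7 and 18.9 for TK1, and without Ov GDR 1 and Ov GDR A it was 75.4 and 21.3 for MCM5.

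Of 51 measured germ cell and oocyte genes 12 were higher in Ov GDR (23.5%) and 1 in F1 GCs, and 20 were at background in both groups. Over all genes the shares were 10.1% in Ov GDR and 12.2% in F1 GCs. BTG4, which in mouse eggs directs maternal mRNA to decay, had 8.52 and 9.05 in Ov GDR and 3.61 and 2.53 in F1 GCs, 52.5-fold higher in Ov GDR (SE 0.53, adjusted p = 0.00654). DAZL, which binds mRNA in germ cells, had 6.86 and 8.19 against 3.46 and 2.42, a 24.0-fold difference. MOS, the kinase that arrests frog and mouse eggs in meiosis, was at background in F1 GCs and at least 9.59-fold higher in Ov GDR, with 5.36 and 6.70 there. ZAR1L, related to the zygote arrest protein, was at least 8.65-fold higher and CD9, a membrane protein that mouse eggs need for fusion with sperm, 32.2-fold. The member higher in F1 GCs was STAG3. Regulators of maternal mRNA had 14 of 88 higher in Ov GDR (15.9%) and 9 in F1 GCs (10.2%), shares close to those of all genes. EIF4ENIF1, which binds the cap-binding protein and represses mRNA, had 11.86 and 11.15 in Ov GDR and 8.54 and 7.94 in F1 GCs, a 9.61-fold difference (adjusted p = 0.0084). CPEB1, which controls the poly(A) tails of maternal mRNA, was 17.3-fold higher in Ov GDR, IGF2BP3 12.1-fold and ZFP36L1 10.6-fold, while ELAVL4, ZFP36L2 and TOB1 were 13.4-fold, 10.5-fold and 9.24-fold higher in F1 GCs. Of these 13 calls 13, 13, 10, 10, 4 and 2 passed without each array, and BTG4 and ZFP36L2 passed in every case (highest adjusted p 0.141). Without Ov GDR 1 and Ov GDR A the fold was 38.1 and 15.1 for DAZL, 21.9 and 8.65 for MOS, 17.6 and 7.18 for ZAR1L and 10.4 and 28.9 for CPEB1, and without F1 GCs 1 and F1 GCs A it was 52.0 and 20.0 for CD9.

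Signalling genes and early embryo regulators included the largest difference in favour of Ov GDR. WNT4, a ligand known for its part in ovarian differentiation, had 10.86 and 10.90 in Ov GDR and 4.66 and 2.64 in F1 GCs, 150-fold higher in Ov GDR (SE 0.722, adjusted p = 0.00757). WNT6 was 37.9-fold higher, NOTCH2, a receptor, 14.3-fold and LRP5, a coreceptor of WNT ligands, 9.39-fold. The members higher in F1 GCs included HHIPL2, named above, DKK3, of a family of secreted WNT modulators, 30.3-fold higher with 7.07 and 6.69 in Ov GDR and 11.68 and 11.93 in F1 GCs, and FZD6, a WNT receptor, 22.2-fold. In this list 10 of 64 were higher in F1 GCs (15.6%) and 9 higher in Ov GDR (14.1%). These shares lay near the 12.2% and 10.1% of all genes. Of 74 early embryo regulators 13 were higher in Ov GDR (17.6%) and 6 in F1 GCs (8.11%). BMP2, a ligand of the TGF-beta superfamily, had 8.71 and 8.69 in Ov GDR and 3.78 and 3.42 in F1 GCs, a 34.4-fold difference. SALL1, a zinc finger factor, was 21.3-fold higher in Ov GDR and FST, given above with its values, 18.2-fold. ZEB2, a repressor of epithelial genes, was 30.9-fold higher in F1 GCs, and CREM, a factor of the cAMP response, 9.70-fold. DUSP4, a phosphatase that inactivates MAP kinases, was 89.7-fold higher in Ov GDR, with 8.95 and 9.93 against 3.44 and 2.46. The 13 calls passed in 12, 12, 12, 12, 8 and 6 cases without each array, LRP5, NOTCH2, FZD6, BMP2, ZEB2, SALL1 and CREM being lost at least once (adjusted p up to 0.179). Without F1 GCs 1 and F1 GCs A the fold was 301 and 74.3 for WNT4 and 58.8 and 24.4 for WNT6. Without Ov GDR 1 and Ov GDR A it was 34.7 and 14.2 for FZD6, 23.6 and 8.64 for NOTCH2 and 52.1 and 18.3 for ZEB2.

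Cell junction and adhesion genes had 8 of 52 members higher in F1 GCs (15.4%) and 4 higher in Ov GDR (7.69%), beside 12.2% and 10.1% of all genes, and the members named differed as follows. EPCAM, an adhesion protein of epithelia and germ cells, had 12.01 and 12.82 in Ov GDR and 7.64 and 4.14 in F1 GCs, 91.7-fold higher in Ov GDR (SE 1.2, adjusted p = 0.0324). CLDN1, a tight junction protein, had 10.92 and 11.43 against 5.88 and 3.44, a 91.2-fold difference. Its relative CLDN5, known from blood vessels, was at background in Ov GDR and at 7.84 and 8.05 in F1 GCs, at least 27.9-fold higher there. ITGA2, a collagen receptor subunit, was 63.1-fold higher in F1 GCs and PKP2, a protein of desmosomes, 37.4-fold. CD9, given above, was among the members higher in Ov GDR. Without each array 5, 5, 4, 4, 6 and 5 of these 6 calls passed, EPCAM, CLDN1 and CD9 being lost (adjusted p up to 0.0856). Without F1 GCs 1 and F1 GCs A the fold was 309 and 27.3 for EPCAM, 212 and 39.2 for CLDN1 and 52.0 and 20.0 for CD9.

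Chromatin modifiers had 13 of 104 members higher in F1 GCs (12.5%) and 15 higher in Ov GDR (14.4%), shares near the 12.2% and 10.1% of all genes, and with equal reporter gene means 33 were higher in Ov GDR. TET2, which oxidises methylated cytosine, had 4.83 and 4.39 in Ov GDR and 9.30 and 9.35 in F1 GCs, 26.2-fold higher in F1 GCs (SE 0.311, adjusted p = 0.00366). SMARCA2, a remodelling ATPase, was 12.1-fold higher in F1 GCs and MBD3, a subunit of the NuRD complex, at least 11.9-fold. CHD4, the ATPase of NuRD, had 11.26 and 11.25 in Ov GDR and 8.52 and 8.41 in F1 GCs, 6.91-fold higher in Ov GDR, EZH2, the methylase of Polycomb, was 8.23-fold higher and SMARCE1 4.48-fold. In nuclear transport 14 of 56 were higher in Ov GDR (25%) and 5 in F1 GCs (8.93%). The importin KPNA2 had 9.58 and 11.77 in Ov GDR and 6.43 and 4.15 in F1 GCs, a 41.7-fold difference, CSE1L, its export factor, was 5.44-fold higher and NUP155, a pore protein, 7.12-fold. TNPO1, an import receptor, was higher in F1 GCs by at least 58.9-fold, with 3.21 and 2.98 in Ov GDR and 9.12 and 8.93 in F1 GCs, and KPNA1 24.0-fold. The 11 calls passed in 11, 10, 9, 9, 6 and 5 cases without each array, KPNA2, EZH2, SMARCA2, NUP155, CSE1L and SMARCE1 being lost at least once (adjusted p up to 0.153). KPNA2 was 88.9-fold and 19.6-fold higher without Ov GDR 1 and Ov GDR A, and 92.1-fold and 18.9-fold without F1 GCs 1 and F1 GCs A.

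Other genes with large contrasts in favour of Ov GDR lay outside these lists. SHANK2, a scaffold protein known from synapses and epithelia, had 9.44 and 9.97 in Ov GDR and 3.43 and 2.54 in F1 GCs, 105-fold higher in Ov GDR (SE 0.43, adjusted p = 0.00343). TMEM121 had 8.72 and 9.05 against 2.95 and 2.83, a 63.7-fold difference with little spread (SE 0.283). FAM72A was 66.8-fold higher, RBM38, an RNA-binding protein that p53 induces, 57.6-fold and LOC426385 51.3-fold. UBE2U, of the family of ubiquitin-conjugating enzymes, was 49.7-fold higher, ANO1, a chloride channel opened by calcium, 48.1-fold and PLAC8L1 47.3-fold. The 8 calls passed in 8, 8, 7, 7, 8 and 7 cases without each array, ANO1 and UBE2U being lost (adjusted p up to 0.0661). Without F1 GCs 1 and F1 GCs A the fold was 105 and 22.1 for ANO1, 111 and 40.1 for FAM72A, 95.5 and 34.8 for RBM38 and 81.8 and 30.2 for UBE2U, which without Ov GDR 1 and Ov GDR A was 80.1-fold and 30.9-fold higher.

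**Figure D5:**
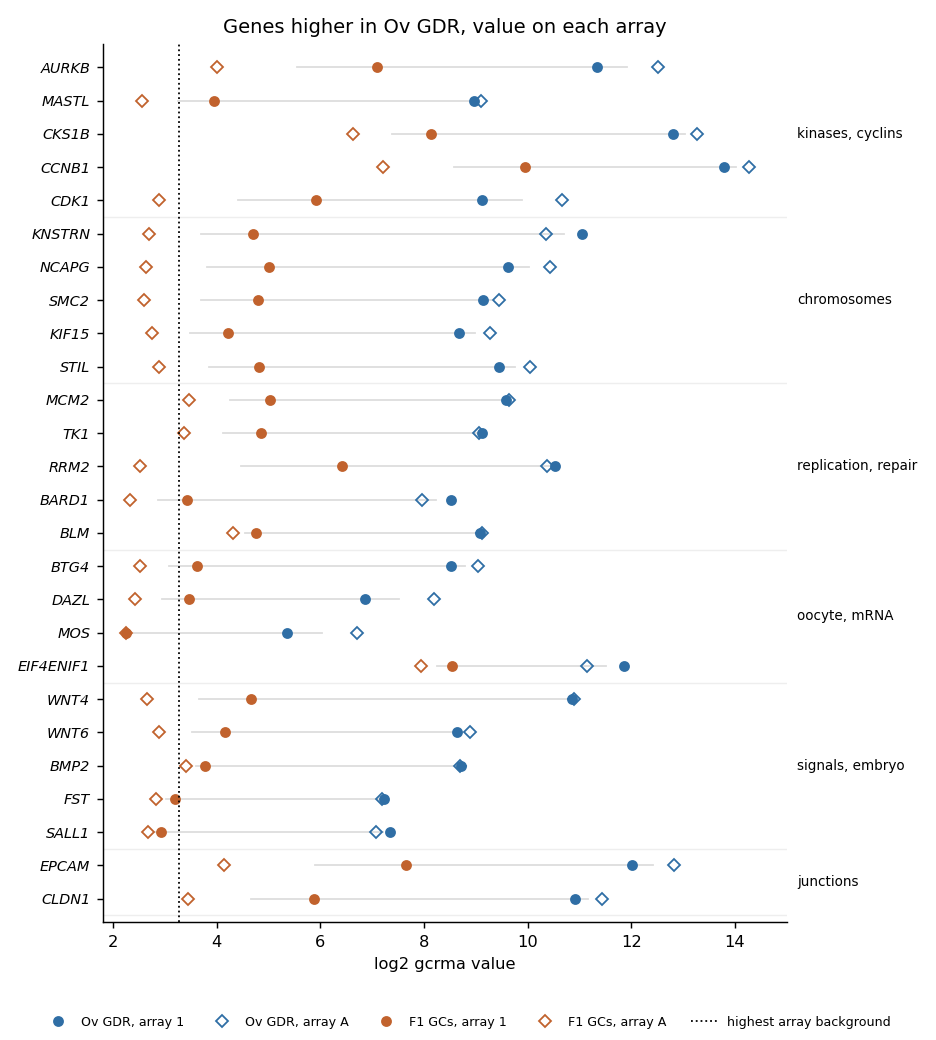
Log2 gcrma value of genes higher in Ov GDR on each of the 4 arrays (circles, array 1; diamonds, array A), with grey lines between group means and a dotted line at the highest background of the arrays, 3.27. Both Ov GDR values lie to the right of both F1 GCs values in every row, and F1 GCs 1 lies to the right of F1 GCs A by 3.50 for EPCAM and by 3.90 for RRM2.

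Relatives within a gene family stood on opposite sides of the comparison in 8 pairs, which were chosen after their values were seen and have no test as pairs. Each difference below is of a gene between groups, since levels of different probe sets were not compared. TK1 was 31.6-fold higher in Ov GDR and TK2 at least 13.5-fold higher in F1 GCs, and RRM2 was 63.2-fold higher in Ov GDR and RRM2B 2.86-fold higher in F1 GCs. TOP2A, the topoisomerase of dividing cells, had 7.32 and 7.33 in Ov GDR and 5.06 and 4.23 in F1 GCs, 6.39-fold higher in Ov GDR, and TOP2B was higher in F1 GCs by at least 22.4-fold. KPNA2 was 41.7-fold higher in Ov GDR and KPNA1 24.0-fold higher in F1 GCs. For the RNA-binding proteins ZFP36L1 and ZFP36L2 the folds were 10.6 in favour of Ov GDR and 10.5 in favour of F1 GCs. Tropomyosin TPM1 had 9.47 and 10.19 in Ov GDR and 6.16 and 5.29 in F1 GCs, 17.2-fold higher in Ov GDR, and TPM2 was 13.1-fold higher in F1 GCs. The claudins CLDN1 and CLDN5, and BTG4 with BTG1, an antiproliferative relative that was 2.88-fold higher in F1 GCs, made up the rest. Of the 16 calls 14, 14, 11, 11, 10 and 10 passed without each array, RRM2, RRM2B, KPNA2, TOP2A, CLDN1, ZFP36L1, TPM2 and BTG1 being lost at least once (adjusted p up to 0.176). RRM2 was 244-fold and 16.4-fold higher in Ov GDR without F1 GCs 1 and F1 GCs A, CLDN1 212-fold and 39.2-fold and TK1 52.7-fold and 18.9-fold. KPNA2 was 92.1-fold and 18.9-fold higher without these arrays, and 88.9-fold and 19.6-fold without Ov GDR 1 and Ov GDR A.

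Markers of other cells that a follicle or an oviduct could add were at background for some types and not for others. The summed level of the list of oviduct and epithelium was 12.1 and 12.9 in Ov GDR against 8.69 and 7.91 in F1 GCs (log2 of the linear sum). Of its 33 measured genes 3 were higher in Ov GDR (EPCAM, ESRP2 and DNAH9), 1 in F1 GCs (CLDN4) and 19 at background in both groups. The share higher in Ov GDR was 9.09%, near the 10.1% of all genes. EPCAM, with 12.01 and 12.82 in Ov GDR and 7.64 and 4.14 in F1 GCs, gave most of the sum in Ov GDR, and OVAL and AVD, egg white proteins of the oviduct, were at background. The part of such cells in the results was not tested. The immune markers PTPRC, CD3E, CD4 and SPI1 were at background in both groups, as were CYP17A1 of theca cells, LUM and DES of stroma and muscle, and CDH5 and VWF of vessels. The immune marker CSF1R and the vessel marker PECAM1 lay above background on all 4 arrays and were not called. LAPTM5, also an immune marker, had 3.11 and 5.75 in Ov GDR, above background on Ov GDR A alone. It had 2.54 and 2.36 in F1 GCs and was not called (adjusted p = 0.181). Other stroma markers stood above background in F1 GCs alone without passing the test. COL3A1, a collagen of connective tissue, had 2.38 and 2.37 in Ov GDR and 4.27 and 6.39 in F1 GCs (adjusted p = 0.0597), and COL1A1 had 2.69 and 2.50 against 3.31 and 3.98 (adjusted p = 0.0529). The summed level of the 9 theca and stroma markers was 5.97 and 5.80 in Ov GDR and 6.76 and 7.47 in F1 GCs. None of the 5 blood markers was measured under its symbol, and the haemoglobin genes on the array, HBAD, HBA1, HBZ, HBBR and HBE, did not exceed 2.72 on the 4 arrays. Of 35 genes of theca and stroma 3 were higher in F1 GCs (8.57%) and 1 higher in Ov GDR (2.86%). Both shares were under the 12.2% and 10.1% of all genes. COL1A2, a chain of type I collagen, was higher in F1 GCs by at least 4.06-fold, although another of its probe sets was called higher in Ov GDR. CD74, the invariant chain that serves antigen presentation, had 4.29 and 3.18 in Ov GDR and 8.69 and 7.83 in F1 GCs, a 23.0-fold difference (adjusted p = 0.0127), and B2M, the light chain of class I molecules, was 3.60-fold higher. Among antigen presentation and interferon genes 6 of 41 were higher in F1 GCs (14.6%) and 4 higher in Ov GDR (9.76%). Shares of all genes were near these, at 12.2% and 10.1%. In the list of immune cells 0 of 37 were higher in F1 GCs and 2 higher in Ov GDR (5.41%). The summed level of 7 immune markers, which include CD74, was 6.13 and 6.57 in Ov GDR and 8.84 and 8.06 in F1 GCs. ALB, serum albumin, had 2.80 and 2.83 in Ov GDR and 11.43 and 11.89 in F1 GCs, at least 367-fold higher in F1 GCs (adjusted p = 0.00268), while VTG2, the yolk precursor that liver makes, was at background in both groups. Of the apolipoproteins of plasma APOH was higher in F1 GCs by at least 6.44-fold and APOA1 by 6.50-fold. In the list of liver and yolk proteins 3 of 35 measured genes were higher in F1 GCs (8.57%) and 2 higher in Ov GDR (5.71%). These shares, too, were under those of all genes, and 20 members were at background in both groups. KDR, a receptor of vessels, was 1.51-fold higher in Ov GDR, with 3.87 and 3.76 against 3.19 and 3.25. These levels are near background. They come from 1 of 5 probe sets of KDR, which may bind several transcripts, and none of the others was called. Without each array 7, 9, 5, 5, 3 and 2 of these 11 calls passed, ALB in every case, with adjusted p-values up to 0.236. The fold of EPCAM was 309 and 27.3 without F1 GCs 1 and F1 GCs A, and that of APOH, measured at 9.68, was 15.6 without F1 GCs 1 and 6.02 without F1 GCs A.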

How the data were processed

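The authors hybridized pooled RNA to Affymetrix chicken arrays and normalized the 6 arrays together with gcrma (version not given in the sources used here). Per probe set the deposited value is on the log2 scale of gcrma, and these values were used as they are. Of 38535 probe sets 96 controls were left out, and the 38439 others were tested without a filter. Gene symbols were taken from the platform annotation, with 27168 probe sets carrying 1 symbol, 177 several and 11094 none, and Entrez IDs tied 26853 of them to RefSeq genes. The test of F1 GCs against Ov GDR was that of limma 3.58.1 (R 4.3.3) for a contrast in a linear model of the 3 groups with a mean-variance trend (1.66 prior degrees of freedom) and Benjamini-Hochberg adjustment over all probe sets. The varmixt test of the methods was not used here. With 2 arrays against 2 an exact permutation test cannot go under 0.333. The arrays give no counts, so their number limits the precision.

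Except for the 25 genes named per direction for their differences, a gene is represented by its brightest probe set. Those 25 are read from the called probe set with the largest difference, so that their folds were chosen for size. A group is at background where neither array exceeded its background. The members and the 36 gene lists (1708 of 2069 entries measured) were chosen with earlier results of these data known, so the counts in them are descriptions. Named genes are the 25 genes per direction with the largest differences among calls whose groups do not overlap, of each list the 5 called members per direction with the largest differences, or its brightest member where none was called, and ACTB, GAPDH and EEF1A1. Cell type markers were named besides. The script was tested on simulated data. Alternatives were no trend, the 4 arrays alone, the suffix as a replicate block, a minimum mean log2 of 4, arrays shifted to equal means of ACTB, GAPDH and EEF1A1 (equal reporter gene means), a plain t-test on the 4 arrays (the methods' t-test without the variance groups of varmixt), a minimum log2 difference of 1, no probe sets of shared sequence, and each array left out. The comparison of relatives and that of the F1 GCs arrays were added after the values were seen. A search for promoter motifs was not run.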

Additional observations from a re-analysis of the deposited data

How the results depend on the processing

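The counts of probe sets higher in F1 GCs, 3284, and of probe sets higher in Ov GDR, 2502, stayed within 1.5 times without the trend (3096 and 2433), with a minimum mean log2 of 4 (3711 and 2352), with equal reporter gene means (2467 and 3307) and without probe sets of shared sequence (2566 and 2059). With only the 4 arrays it was 2244 and 1151, with a minimum log2 difference of 1 it was 2991 and 1540, and with a plain t-test on the 4 arrays, which is the methods' t-test without the variance groups of varmixt, 272 and 150 after Benjamini-Hochberg adjustment. After Bonferroni adjustment limma called 16 and 0 and this plain t-test 2 and 2. Leaving out 1 array gave 1215 to 4412 and 179 to 8726, the lowest without F1 GCs A and the highest without Ov GDR A. The labels do not say whether the suffix pairs the arrays. Gaps between arrays 1 and A correlated at 0.168 between Ov GDR and F1 GCs and -0.153 between Ov GDR and F1 GDR. Between F1 GDR and F1 GCs the correlation was -0.145. These correlations over all probe sets have no test and cannot decide whether the arrays are paired. With the suffix as a replicate block 2328 and 1046 were called. With equal reporter gene means the estimated prior degrees of freedom were infinite, so that all probe sets share the trended variance and p-values are too small. The cause of the other changes was not tested.

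Of 260 called genes named by the rule, 139 higher in F1 GCs and 121 higher in Ov GDR, none reversed under the alternatives that tested it. The groups did not overlap for any called probe set. Only the setting of equal reporter gene means could therefore reverse a gene, since the others cannot change the sign of its difference. Calls kept were 113 and 70 with the 4 arrays and 119 and 82 with the block. Equal reporter gene means kept 123 and 110, and the fit without the trend 130 and 107. The plain t-test on the 4 arrays kept only 26 and 3. ACTB, at -0.31 and not called, lay between -0.64 without Ov GDR 1 and 0.0202 without Ov GDR A. GAPDH, at 0.02 and not called, was -0.41 with equal reporter gene means and lay between -0.32 without Ov GDR 1 and 0.36 without Ov GDR A.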
